A study of Mus musculus with 12 samples.

Results

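The vitamin D receptor and the genes that make, inactivate and act together with its ligand were followed in mouse ovaries. They are the 9 genes Vdr, Cyp24a1, Cyp27b1, Cyp2r1, Cyp27a1, Rxra, Rxrb, Rxrg and Pdia3, chosen by name among the 30175 gene and transcript names on the array, and 12 of the 39429 distinct probes read them. The study asked what a lack of dietary vitamin D in early life or around puberty does to the adult ovarian transcriptome. All 12 mice were C57BL/6J females, an inbred strain with no allele or transgene named, and were 2 months old. The 4 peripubertal mice (P1 to P4) ate a vitamin D-deficient diet in the peripubertal stage only, the 4 early-life mice (E1 to E4) ate it in early life only, and the 4 control mice (C1 to C4) ate a normal diet. The series design states that the 4 females of a group are biological replicates.

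RNA was read on 6 two-channel Agilent arrays, each holding 2 samples of the same group, with odd-numbered samples in Cy3 and even-numbered samples in Cy5. The peripubertal arrays lie on a slide and scan of their own, so the effect of that slide and that of the diet cannot be told apart there, whereas early-life and control arrays share a slide and a scan. The 8 early-life and control columns of the authors' deposited value table matched arrays of the opposite group, control columns those of early-life ovaries and the reverse (r of 0.9998), and the 4 peripubertal columns matched no array (r of 0.874 to 0.897 at best). The scanner files' own sample names are used below, so the sign of every early-life minus control value is open, and with those arrays exchanged the peripubertal minus control and peripubertal minus early-life values trade places. Median signals ran from 147.2 to 330.7 units of intensity, and 59.3% to 65.5% of the probes of a channel were well above background. All 8 granulosa markers, all 8 oocyte markers and the 3 theca markers on the array were well above background in all 12 samples. Of the 8 pituitary markers 5 were so in no sample, while Pomc and Lhb were so in all 12 and Pou1f1 in 2. Oviduct epithelium markers summed to 13063 to 19986 units in peripubertal samples, 19226 to 308444 in early-life samples and 19343 to 135668 in control samples, and adipocyte markers to 4438 to 35334, 20099 to 145651 and 3084 to 11441 in the same groups. The part of such other tissue in the values below was not tested.

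Vitamin D from skin or diet is hydroxylated first in the liver, chiefly by Cyp2r1 and also by the bile acid enzyme Cyp27a1, and then to its active hormone by Cyp27b1, mainly in the kidney. The hormone binds the nuclear receptor Vdr, which pairs with a retinoid X receptor (Rxra, Rxrb or Rxrg) on DNA and induces, among others, Cyp24a1, the enzyme that inactivates the hormone. Pdia3 is a protein disulfide isomerase of the endoplasmic reticulum that has also been described as a membrane binding protein for the hormone, and Vdr is known in the granulosa cells of the ovary.

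The probes decide what can be seen of each gene, and the 3 genes with a pair of probes differed in what their probes detected. For these 3 genes a stretch of 30 bases of each probe is given, 5′ to 3′ on the sense strand as the array design prints it, with the polyadenylation hexamer AATAAA in capitals where a probe holds it.

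Cyp2r1 probe 1: attacaaccccagccctacctcatctgtgc

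Cyp2r1 probe 2: aatggtgtttgggccaaagccacattttta

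Rxrg probe 1: tgtgatgcttgtAATAAAgacaacctttct

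Rxrg probe 2: aggtctttccggcagttcttgggaagagtg

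Rxra probe 1: gtccttatgggcccaaaagatgcatcacca

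Rxra probe 2: taattacaggttaacaatgccccatctgtg

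The Cyp2r1 probes lie at chr7:121693769-121693828 and chr7:121693684-121693743 (mm9, minus strand), with starts 85 bases apart on the transcript. Probe 1 was well above background in all 12 samples and probe 2, nearer the 3′ end, in 0 of 12. The Rxrg probes lie at chr1:169569496-169569555 and chr1:169569624-169569683 (mm9, plus strand), with starts 128 bases apart. Probe 1 was well above background in all 12 samples, and probe 2, which lies downstream of it, only in E1 and E4. Rxrg probe 1 holds AATAAA at base 38 of its 60 bases, so probe 2 begins past that hexamer. It is the only one of the 12 probes that holds the hexamer on the strand printed, as do 12.6% of all probes on the array, and this is a description of the letters, not of where the transcript ends. Both Rxra probes, at chr2:27615316-27615375 and chr2:27618781-27618839 (mm9, plus strand), were well above background in all 12 samples although their starts are 3465 bases apart. Levels of different probes are not set against each other, because each probe binds its target with its own strength.

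**Figure D1:**
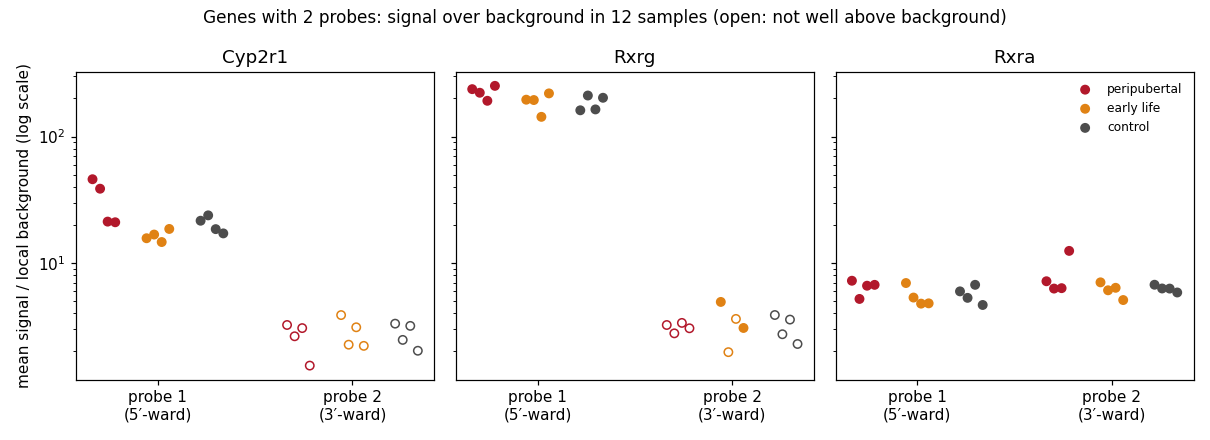
Mean signal over local background (log scale, no unit) of the probes of Cyp2r1, Rxrg and Rxra in the peripubertal, early-life and control samples, 1 point per sample, with open points where the signal was not well above background. Probe 2 of Cyp2r1 is open in all 12 samples and probe 2 of Rxrg in all but E1 and E4, while probe 1 of each gene and both Rxra probes are filled throughout.

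The other 6 genes have 1 probe each. The Vdr probe lies at chr15:97685136-97685195, that of Cyp24a1 at chr2:170308865-170308924, that of Cyp27b1 at chr10:126489922-126489981, that of Cyp27a1 at chr1:74782203-74782262, that of Rxrb at chr17:34175279-34175338 and that of Pdia3 at chr2:121263343-121263402 (all mm9). No exon map of mm9 was used here, so exon and UTR are not given. The Cyp27a1 probe is printed 10 times on each array and all others once. Of the 12 probes, 9 passed the filter of at least 4 samples well above background and entered the fit, and these cover 8 of the 9 genes, Cyp24a1 being left out. Values below are log2 intensities after normalization, and a difference of 1 is a doubling of the signal; in whole ovaries, fewer cells of a type and less RNA per cell cannot be told apart.

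In none of the 3 diet comparisons did a probe of these genes pass the test (limma, Benjamini-Hochberg adjusted p under 0.05 over all probes). Between peripubertal and control ovaries 0 of 9 probes passed, where 0.198% of all probes did, between early-life and control ovaries 0 of 9, where 0.0371% did, and between peripubertal and early-life ovaries 0 of 9, where 2.09% did. At an unadjusted p under 0.05 there was 1 probe for peripubertal against control (Rxrg probe 1), against 11.6% of all probes. There was 1 for early life against control (Cyp2r1 probe 1), against 13.4%, and there were 2 for peripubertal against early life (Cyp27a1 and Rxrg probe 1), against 23.3%. The groups did not overlap for 0 of 9 probes between peripubertal and control (11.8% of all probes) and for 1 between early life and control, Cyp2r1 probe 1 (13.8%). They did not overlap for 3 between peripubertal and early life, namely Cyp2r1 probe 1, Cyp27a1 and Rxrg probe 1 (20.8%). The median difference over the 9 probes was 0.09 for peripubertal minus control, -0.07 for early life minus control and 0.10 for peripubertal minus early life, beside 0.01, -0.02 and 0.03 over all probes tested. The comparisons share samples in pairs and are not independent of each other.

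**Figure D2:**
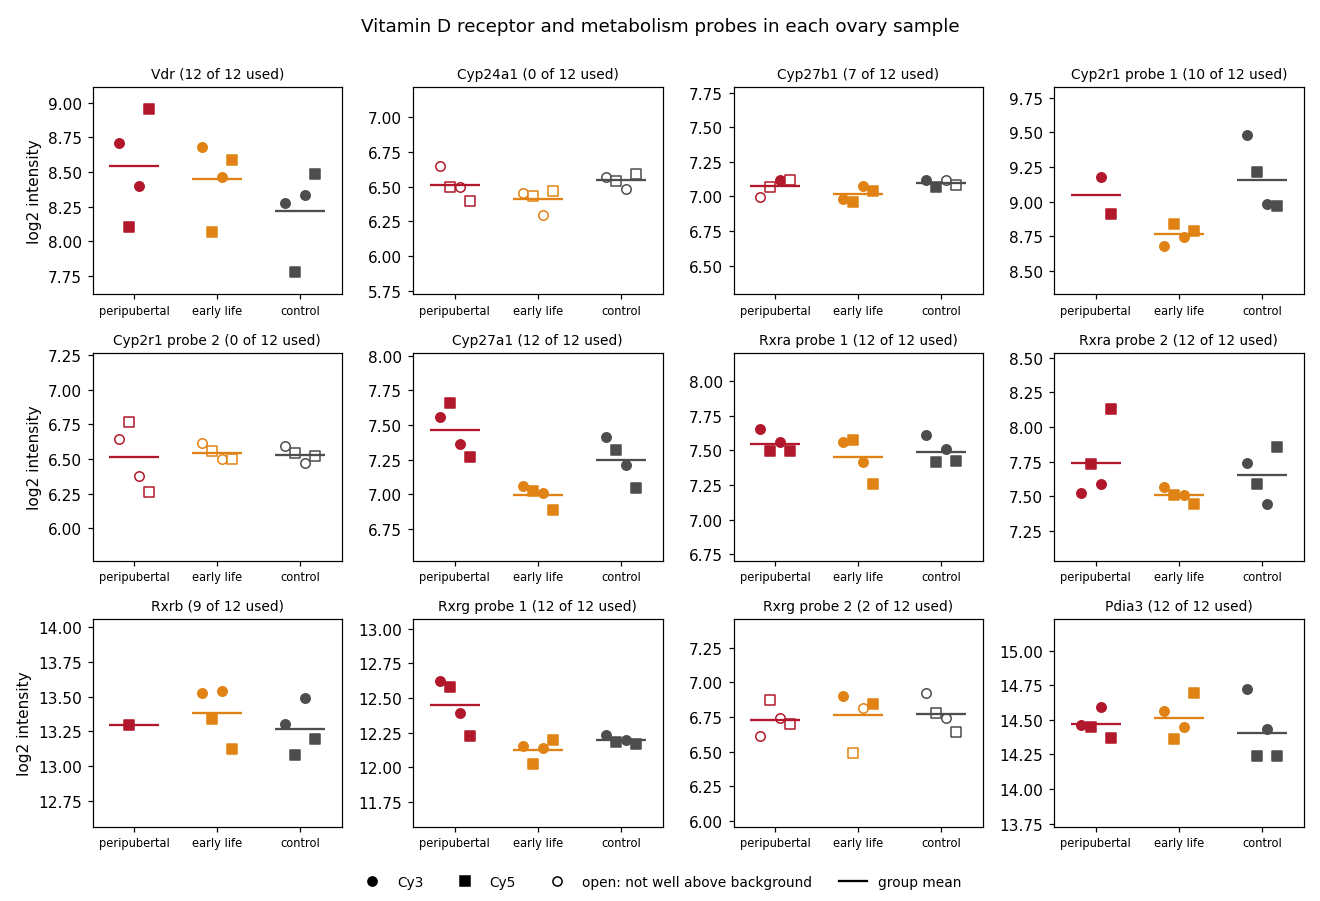
Log2 intensity in each peripubertal, early-life and control ovary for the 12 probes, with Cy3 samples as circles, Cy5 samples as squares, open symbols where the probe was not well above background and a bar at the group mean; each panel has its own axis range of the same height, and its title counts the samples with a used spot well above background. Groups lie apart for Cyp27a1, Cyp2r1 probe 1 and Rxrg probe 1 between peripubertal and early-life samples, and spots set aside as outliers (Cyp2r1 probe 1 in P1 and P2, Rxrb in P1, P3 and P4) are missing.

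Vdr, the receptor itself, was well above background in all 12 ovaries. Its log2 intensity was 8.71, 8.10, 8.40 and 8.95 in P1 to P4, 8.68, 8.06, 8.46 and 8.59 in E1 to E4, and 8.28, 7.78, 8.33 and 8.49 in C1 to C4. The 3 groups overlapped, and the second sample was the lowest of its group in each. The group means were 8.54 ± 0.37 in peripubertal, 8.45 ± 0.27 in early-life and 8.22 ± 0.31 in control ovaries (SD, n = 4 each). Peripubertal minus control was 0.32 ± 0.26 (SE, limma adjusted p = 0.692), with a 95% interval of -0.27 to 0.91, early life minus control was 0.23 ± 0.26 (adjusted p = 0.703), and peripubertal minus early life was 0.09 ± 0.26 (adjusted p = 0.862). No difference in Vdr passed the test, and the interval for peripubertal minus control leaves room for changes up to 1.88-fold in peripubertal ovaries.

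Among the retinoid X receptors, the partners that bind DNA with Vdr, Rxrg probe 1 had a higher group mean in peripubertal ovaries than in either other group. Its log2 intensity was 12.62, 12.58, 12.39 and 12.22 in P1 to P4, 12.15, 12.02, 12.14 and 12.20 in E1 to E4, and 12.23, 12.19, 12.20 and 12.17 in C1 to C4. All peripubertal values lay above all early-life values, 15 of 16 peripubertal and control pairs were higher in the peripubertal sample, and P1 and P2, which share an array, stood above P3 and P4. Peripubertal minus early life was 0.32 ± 0.10 (SE, 1.25-fold, limma adjusted p = 0.0990) and peripubertal minus control was 0.26 ± 0.10 (1.20-fold, adjusted p = 0.354), neither past the threshold. Early life minus control was -0.07 ± 0.10 (adjusted p = 0.765). Rxrg probe 2 lay between 6.49 and 6.93 in all 12 samples, and no fold is given, since it was at background in all samples but E1 and E4. The same probe held 4.12 to 4.82 in the unmatched Cy3 columns of the deposited value table, against -1.34 to -1.18 in the other Cy3 columns. Probe 2 thus does not bear out the reading of probe 1, and which of them follows the Rxrg transcript in these ovaries was not tested.

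Rxra gave the same order of groups with both probes, with no difference past the threshold. Probe 1 averaged 7.55 ± 0.08 in peripubertal, 7.45 ± 0.15 in early-life and 7.49 ± 0.09 in control ovaries (SD, n = 4 each). Probe 2 averaged 7.74 ± 0.27, 7.51 ± 0.05 and 7.66 ± 0.18 in the same groups, and its highest sample was P4 at 8.13. Peripubertal minus early life was 0.10 ± 0.09 with probe 1 (SE, limma adjusted p = 0.530) and 0.24 ± 0.16 with probe 2 (adjusted p = 0.385). Probe 2 was higher in the peripubertal sample in 15 of 16 pairs of samples, and this difference was 0.60 (adjusted p = 0.134) with the software's processed signals. Rxrb was well above background in all 12 ovaries, but its spots in P1, P3 and P4 were set aside as outliers by the scanner software. P2 had 13.30, early-life samples 13.52, 13.34, 13.54 and 13.12, and control samples 13.30, 13.08, 13.49 and 13.19. The early-life and control values overlapped (0.11 ± 0.10, SE, limma adjusted p = 0.605), and the peripubertal group rests on 1 value, assumed by the fit to vary like the others (peripubertal minus control 0.17 ± 0.14, adjusted p = 0.702). With outlier spots kept, peripubertal minus control was 0.0100 (limma adjusted p = 0.982), and peripubertal minus early life was -0.10 (adjusted p = 0.545), against 0.06 ± 0.14 (adjusted p = 0.840) without them.

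Of the enzymes of the first hydroxylation, Cyp2r1, which carries most of this step in the liver, was read by probe 1 alone. Its log2 intensity was 9.18 and 8.91 in P3 and P4, 8.68, 8.84, 8.74 and 8.79 in E1 to E4, and 9.48, 9.21, 8.98 and 8.96 in C1 to C4. Every early-life value lay below every control value and below both peripubertal values. Early life minus control was -0.39 ± 0.14 (SE, 95% interval -0.73 to -0.06, limma adjusted p = 0.325), which did not pass, and this comparison lies within 1 slide. Peripubertal minus control was -0.11 ± 0.18 (adjusted p = 0.848) and peripubertal minus early life was 0.28 ± 0.18 (adjusted p = 0.377), both from 2 peripubertal values. The spots of P1 and P2 were set aside as outliers, with mean signals of 827 and 1392 units, where P3 had 404 in the dye of P1 and P4 had 777 in the dye of P2. With outlier spots kept, the sign against control turned, at 0.51 (adjusted p = 0.551) for peripubertal minus control, and peripubertal minus early life was 0.91 (adjusted p = 0.129). Probe 2 had signals that were not well above background in any sample, so it gives no further reading of the gene.

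Cyp27a1, a mitochondrial enzyme that hydroxylates the side chain of sterols and of vitamin D, had the lowest adjusted p among the 9 probes. Its log2 intensity, as the mean of up to 10 spots, was 7.56, 7.66, 7.37 and 7.27 in P1 to P4, 7.06, 7.02, 7.01 and 6.89 in E1 to E4, and 7.42, 7.32, 7.21 and 7.04 in C1 to C4. All peripubertal values lay above all early-life values, and control values lay between and overlapped both. The group means were 7.46 ± 0.18 in peripubertal, 7.00 ± 0.08 in early-life and 7.25 ± 0.16 in control ovaries (SD, n = 4 each). Peripubertal minus early life was 0.47 ± 0.11 (SE, 1.38-fold, 95% interval 0.21 to 0.72, limma adjusted p = 0.0614), short of the threshold. It was 0.48 without E2 (adjusted p = 0.0492), which passed, and 1.00 with the software's processed signals (adjusted p = 0.0518). Peripubertal minus control was 0.21 ± 0.11 (adjusted p = 0.510) and early life minus control was -0.25 ± 0.11 (adjusted p = 0.375), and with the processed signals these were 0.37 (adjusted p = 0.588) and -0.63 (adjusted p = 0.311).

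The printed copies of the Cyp27a1 probe show how far the spots themselves scatter. Within an array and channel the spots had an SD of 0.142 to 0.243, beside differences of -0.25 to 0.47 between the groups. Taken spot by spot over the group means, 10 of 10 copies were higher in peripubertal than in early-life ovaries (0.24 to 0.59), 10 of 10 were higher in peripubertal than in control ovaries (0.0034 to 0.38), and 10 of 10 were lower in early-life than in control ovaries (-0.36 to -0.15). The copies share 1 RNA sample and are not replicates of a diet. The number of spots well above background was 10, 10, 10 and 6 in P1 to P4, 9, 9, 5 and 8 in E1 to E4, and 10, 10, 10 and 5 in C1 to C4. The signal was thus near the detection limit in E3, C4 and P4.

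**Figure D3:**
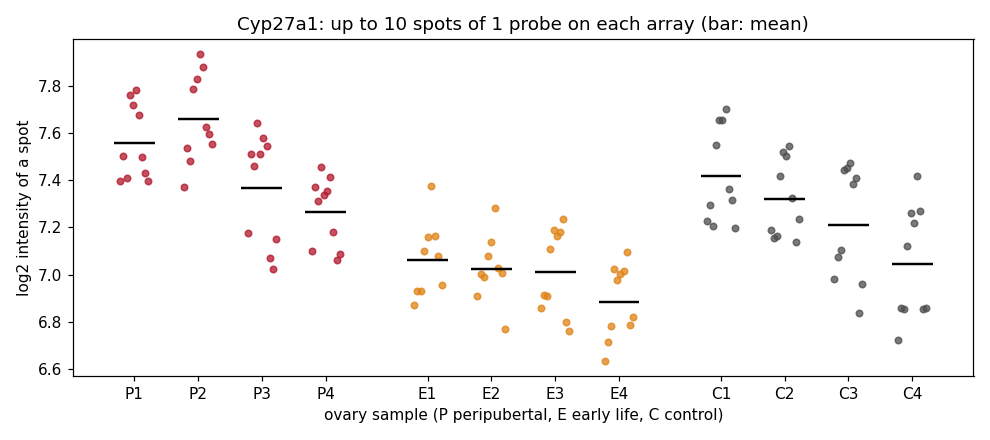
Log2 intensity of each used spot of the Cyp27a1 probe in peripubertal (P), early-life (E) and control (C) ovaries, 9 or 10 spots per sample, with a bar at the sample mean. The bars of P1 to P4 lie at 7.27 to 7.66, above those of E1 to E4 at 6.89 to 7.06, while single spots of neighbouring samples overlap.

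The summed markers of macrophages, theca cells and luteal cells were, like Cyp27a1, higher in every peripubertal than in every early-life ovary, and their part in the Cyp27a1 values was not tested. The 3 theca markers on the array summed to 277117 to 400942 units in peripubertal, 178130 to 246832 in early-life and 194397 to 278215 in control ovaries. The 5 luteal markers summed to 49129 to 143411 units in peripubertal, 39820 to 47807 in early-life and 24468 to 83352 in control ovaries. As a mean log2 deviation per sample, however, theca markers overlapped between peripubertal and early-life ovaries, at -0.10 in P1 and 0.14 in E3. Luteal markers were barely apart by it, at -0.14 in P2 and -0.15 in E3. All 7 macrophage markers (Adgre1, C1qa, C1qb, C1qc, Csf1r, Mrc1 and Cd68) were well above background in all 12 samples. Their summed intensity was 15007 to 22956 units in peripubertal, 7016 to 9799 in early-life and 8437 to 18539 in control ovaries. As a mean log2 deviation per sample it was 0.81, 0.87, 0.29 and 0.27 in P1 to P4, -0.36, -0.83, -0.69 and -0.59 in E1 to E4, and 0.48, 0.16, 0.15 and -0.55 in C1 to C4. C1 was the highest and C4 the lowest of the control samples by this measure, as they were for Cyp27a1. Among early-life samples, however, E2 was the lowest by this measure and E4 the lowest for Cyp27a1. For luteal markers the control order was the opposite, with C1 the lowest (-1.33) and C4 the highest (0.65). Oviduct epithelium markers also lay apart by mean log2 deviation, in the other direction. They were at -1.83 to -0.91 in peripubertal and -0.525 to 2.65 in early-life ovaries. These orders of a few samples that share arrays are given as a description, and the part of any of these tissues in Cyp27a1 was not tested.

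Cyp27b1, which makes the active hormone and is best known from the kidney, lay close to the detection limit. It was well above background in P3, in all 4 early-life samples, and in C1 and C2. Its log2 intensity was 7.00, 7.07, 7.12 and 7.12 in P1 to P4, 6.98, 6.96, 7.08 and 7.04 in E1 to E4, and 7.12, 7.07, 7.12 and 7.08 in C1 to C4. The range over all 12 samples was 0.16, and the early-life group, the only one detected in all its samples, had the lowest mean. Peripubertal minus control was -0.02 ± 0.07 (SE, limma adjusted p = 0.933), early life minus control was -0.08 ± 0.07 (adjusted p = 0.590), and peripubertal minus early life was 0.06 ± 0.07 (adjusted p = 0.631). The 95% intervals were -0.18 to 0.13, -0.24 to 0.07 and -0.09 to 0.21 in these comparisons, but a signal this near background understates any change of the transcript.

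Cyp24a1, the inactivating enzyme and a classical target of Vdr, was not well above background in any of the 12 ovaries. Its signal was 57.9 to 76.7 intensity units, 1.82 to 3.70 times the local background. The log2 intensity was 6.39 to 6.65 in peripubertal, 6.30 to 6.47 in early-life and 6.48 to 6.59 in control ovaries, and no fold is given because every sample is at background. A level below what this probe can show is not shown to be absent.

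Pdia3, the disulfide isomerase, had a strong signal in every sample, 637 to 1075 times the local background. Its log2 intensity was 14.46, 14.45, 14.59 and 14.37 in P1 to P4, 14.56, 14.36, 14.45 and 14.70 in E1 to E4, and 14.72, 14.24, 14.43 and 14.24 in C1 to C4. The groups overlapped in all 3 comparisons. Peripubertal minus control was 0.06 ± 0.14 (SE, limma adjusted p = 0.894), early life minus control was 0.11 ± 0.14 (adjusted p = 0.730), and peripubertal minus early life was -0.05 ± 0.14 (adjusted p = 0.870). The 95% intervals were -0.24 to 0.37, -0.19 to 0.41 and -0.35 to 0.26 in these comparisons.

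**Figure D4:**
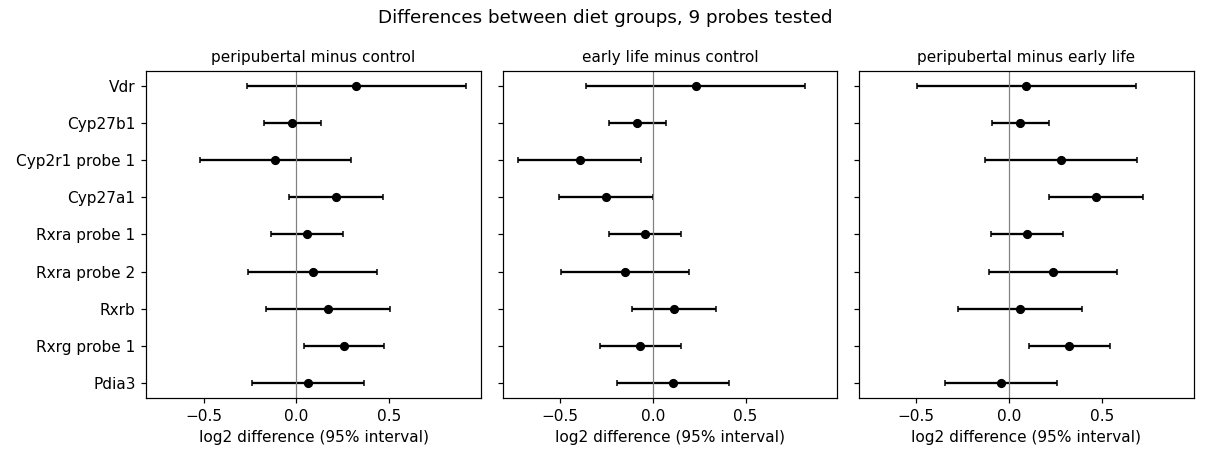
Log2 differences of the 9 tested probes with 95% intervals from the limma fit, for peripubertal minus control, early life minus control and peripubertal minus early life. The interval of Cyp27a1 for peripubertal minus early life runs from 0.21 to 0.72, and Vdr has the widest intervals, -0.27 to 0.91 for peripubertal minus control.

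The dye means differed most for Rxrb, at 13.20 in Cy5 and 13.46 in Cy3, and differed by 0.15 or less for every other probe, and dye was a term of the fit. The genes whose log2 values ran most like those of a member over the 12 samples, after the mean of each dye was removed, were sought among 10021 genes detected and measured in all 12. They were Htra3 (Pearson r 0.977), Olfr549 (0.971) and Ms4a6c (0.970) for Cyp27a1, and Cel (0.967), Hcn2 (0.960) and Ppp2r4 (0.960) for Rxrg probe 1. For Vdr they were Crb2 (0.913), Cybrd1 (0.896) and Klk1b8 (0.888), for Rxra Nudt17 (0.850), Klk1b4 (0.842) and Nat2 (0.840), and for Pdia3 Tmem8c (0.849), Pls3 (0.827) and Zfp111 (0.827). These are the highest of many correlations over samples that share arrays and slides, and they are given as a description.

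Around these genes, 78 others of the pathway were looked at in 7 groups, and 69 or 70 of them could be tested in each comparison. Of them 0 rose or fell between peripubertal and control ovaries (limma, 8 of 69 at an unadjusted p under 0.05, against 11.6% of all probes) and 0 between early-life and control ovaries (5 of 70 unadjusted, against 13.4%). The groups did not overlap for 14 of 69 in peripubertal against control (11.8% of all probes) and for 10 of 70 in early life against control (13.8%). In peripubertal against early-life ovaries 2 of 70 rose, Lrp5 and Ppara, where 2.09% of all probes were called, 21 had an unadjusted p under 0.05 (23.3% of all probes), and the groups of 23 did not overlap (20.8%). Spots set aside as outliers left some of these genes with values from only part of the samples, where groups lie apart more easily.

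Lrp5, a WNT co-receptor and a target of Vdr in bone cells, had log2 intensities of 11.89, 11.77, 11.67 and 11.64 in P1 to P4, 11.18, 11.24, 11.32 and 11.39 in E1 to E4, and 11.45, 11.39, 11.24 and 11.37 in C1 to C4. All 4 peripubertal values lay above all values of both other groups. Peripubertal minus early life was 0.46 ± 0.09 (SE, limma adjusted p = 0.0422) and peripubertal minus control was 0.38 ± 0.09 (adjusted p = 0.176). Ppara, the fatty acid-sensing nuclear receptor that also pairs with retinoid X receptors, had 9.83, 9.83, 9.57 and 9.58 in P1 to P4, 9.15, 9.34, 9.14 and 9.20 in E1 to E4, and 9.64, 9.63, 9.44 and 9.50 in C1 to C4. Here the early-life values lay below those of both other groups. Peripubertal minus early life was 0.50 ± 0.10 (SE, limma adjusted p = 0.0395) and early life minus control was -0.35 ± 0.10 (adjusted p = 0.247). The peripubertal and early-life slides differ, and the calls of Lrp5 and Ppara were lost in 13 and 14 of 26 alternatives, most of them the removal of 1 sample, with the direction unchanged.

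Of 19 target genes of Vdr, 17 were tested, with a median of 0.13 for peripubertal minus control, 0.02 for early life minus control and 0.39 for peripubertal minus early life, and 1, Lrp5, passed in any comparison. The directions were mixed, with 13 higher and 4 lower, 9 higher and 8 lower, and 11 higher and 6 lower in the same comparisons. Beside Lrp5, the smallest p had Abcb1a, a drug efflux pump, in peripubertal minus control (0.84 ± 0.15, SE, limma adjusted p = 0.273), Spp1, the bone matrix protein osteopontin (-1.99 ± 0.92, adjusted p = 0.384), and Gadd45a, a DNA damage response gene (0.88 ± 0.42, adjusted p = 0.413), in early life minus control. Abcb1a and Gadd45a rest on values from only part of the samples, since spots were set aside as outliers, and Abcb1a had too few early-life values for an SD. Fgf23, the bone hormone that lowers phosphate, was at 0.49 ± 0.17 in peripubertal minus early life (limma adjusted p = 0.133). Its probe was detected in 12 of 12 samples, with group means of 13.33, 12.84 and 12.82 in peripubertal, early-life and control ovaries. Whether so strong a signal comes from the Fgf23 transcript was not tested. The epithelial calcium channel gene Trpv5 and Bglap, which encodes osteocalcin, were detected in 0 of 12 samples.

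Of 8 genes of vitamin D transport and of its sterol precursor, 6 were tested and 0 passed. Gc, the plasma carrier of vitamin D, was detected in 2 of 12 samples and Cubn, part of the receptor that takes it up in the kidney, in 0 of 12. Amn, which anchors Cubn, was detected in 5 of 12 samples. It was at 0.39 ± 0.11 in peripubertal minus early life (SE, limma adjusted p = 0.0829), or 0.96 with the processed signals (adjusted p = 0.106), and 0.23 ± 0.11 in peripubertal minus control (adjusted p = 0.457). Lrp2, the endocytic receptor megalin, was at -0.87 ± 0.50 in peripubertal minus early life (adjusted p = 0.314) and 1.01 ± 0.50 in early life minus control (adjusted p = 0.406). Sc5d, a late enzyme of sterol synthesis, was at -0.70 ± 0.59 in peripubertal minus control (adjusted p = 0.698) and -1.11 ± 0.59 in early life minus control (adjusted p = 0.433).

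The 6 electron donors of cytochrome P450 enzymes were all tested and 0 passed. Fdx1 and Fdxr pass electrons to the mitochondrial P450 enzymes, Cyp27a1, Cyp27b1 and Cyp24a1 among them, and also to the steroid-making Cyp11a1. Fdx1 was at 1.35 ± 0.47 in peripubertal minus early life (SE, limma adjusted p = 0.150) and -1.28 ± 0.47 in early life minus control (adjusted p = 0.326). Fdxr was at 0.82 ± 0.29 (adjusted p = 0.140) and -0.84 ± 0.29 (adjusted p = 0.293) in the same comparisons. For both genes the early-life and control groups did not overlap, as for 13.8% of all probes. Spots set aside as outliers left Fdx1 with fewer values in early-life ovaries. The SE of Fdx1 was 0.47 in both comparisons with early life and 0.39 in peripubertal minus control. Against control, peripubertal ovaries had the smallest p for Cyb5a (-0.70 ± 0.33, adjusted p = 0.478) and Por (-0.26 ± 0.29, adjusted p = 0.773), which serve the P450 enzymes of the endoplasmic reticulum, Cyp2r1 among them.

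The 15 coregulators of Vdr were all tested in early life minus control and 14 of them in the other comparisons, and 0 passed. Their medians were 0.07 for peripubertal minus control, 0.00 for early life minus control and 0.01 for peripubertal minus early life. The smallest p had Hdac3, a corepressor deacetylase (-0.37 ± 0.12, SE, limma adjusted p = 0.310), and Med1, a Mediator subunit that binds nuclear receptors (0.16 ± 0.08, adjusted p = 0.467), in peripubertal minus control. Snw1 (0.15 ± 0.07, adjusted p = 0.395) and the acetyltransferase Crebbp (0.20 ± 0.11, adjusted p = 0.459) followed in early life minus control, and Med1 (0.24 ± 0.08, adjusted p = 0.110) and Brd7 (0.26 ± 0.10, adjusted p = 0.176) in peripubertal minus early life.

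Of 15 other receptors that pair with retinoid X receptors, 14 were tested and Ppara alone passed, in 1 comparison. Nr1h3, the oxysterol receptor LXR alpha, whose ligands include products of Cyp27a1, was at 0.73 ± 0.19 in peripubertal minus early life (SE, limma adjusted p = 0.0675) and -0.62 ± 0.19 in early life minus control (adjusted p = 0.257). Its groups were apart in both, as were those of 20.8% and 13.8% of all probes. Thrb, a thyroid hormone receptor (0.32 ± 0.11, adjusted p = 0.313), and Rarg, a retinoic acid receptor (-0.75 ± 0.35, adjusted p = 0.443), had the smallest p in peripubertal minus control.

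Of 7 hormonal regulators of the vitamin D hydroxylases, 5 were tested and 0 passed, and the calcium receptor gene Casr and the calcitonin receptor gene Calcr were detected in 0 of 12 samples. Pth1r, the parathyroid hormone receptor, was at 0.94 ± 0.26 in peripubertal minus early life (SE, limma adjusted p = 0.0802) and -0.65 ± 0.26 in early life minus control (adjusted p = 0.334). Kl, the Fgf23 co-receptor klotho, was at 0.93 ± 0.45 in peripubertal minus control (adjusted p = 0.472) and 0.66 ± 0.45 in early life minus control (adjusted p = 0.525), and Fgf23 at 0.51 ± 0.17 in peripubertal minus control (adjusted p = 0.290). Of 9 partners and paralogs of Pdia3, 8 or 9 were tested in each comparison and 0 passed. Calr, the chaperone calreticulin that recruits Pdia3 to glycoproteins, was at -0.50 ± 0.12 in peripubertal minus early life (adjusted p = 0.0998) and -0.48 ± 0.12 in peripubertal minus control (adjusted p = 0.273). Pdia4 was at -0.92 ± 0.32 (adjusted p = 0.147) and -0.75 ± 0.32 (adjusted p = 0.426) in the same comparisons. Among the spots used, both genes had peripubertal values below all others, while Pdia3 itself did not. In either direction, groups lay apart for 20.8% of all probes in peripubertal against early life and 11.8% in peripubertal against control. Outlier spots set aside left Calr and Pdia4 with values from only part of the samples, whereas Pdia3 had a value in all 12. In early life minus control the smallest p had Erp44 (-0.17 ± 0.11, adjusted p = 0.491) and P4hb (-0.09 ± 0.09, adjusted p = 0.659).

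**Figure D5:**
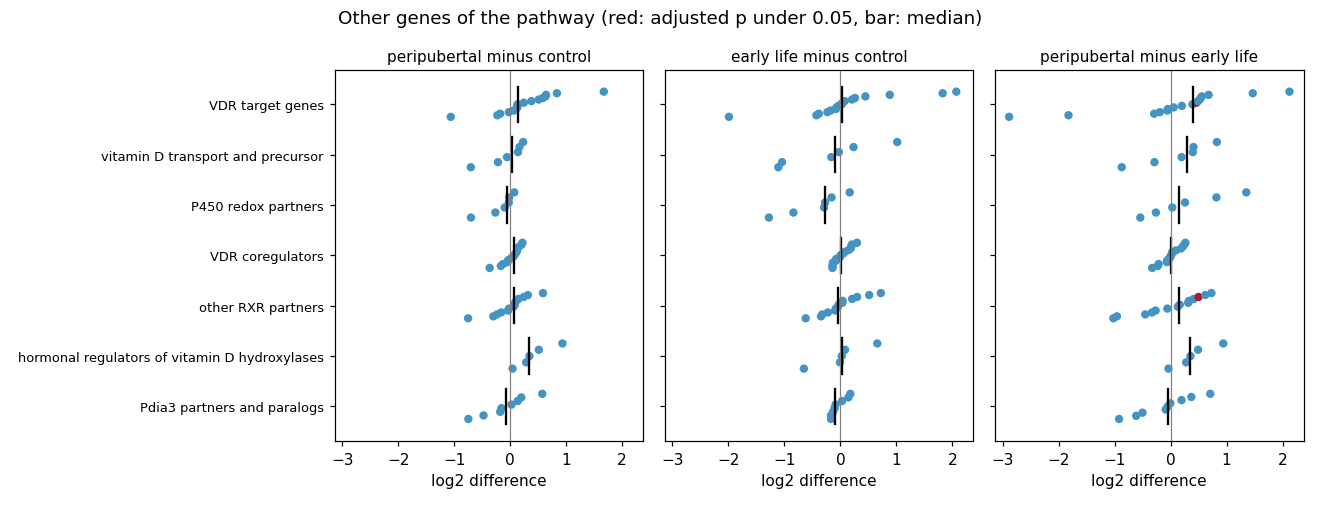
Log2 differences of the tested genes of the 7 pathway groups, 1 point per gene with a bar at the group's median, for peripubertal minus control, early life minus control and peripubertal minus early life. The points past the threshold, Lrp5 among the target genes of Vdr and Ppara among the other partners of retinoid X receptors, appear in red in peripubertal minus early life only.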

How the data were processed

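The deposited scanner files give each spot's mean signal and local background as intensity, not normalized, with flags for outliers and for signals well above background; per the file headers they come from Agilent Feature Extraction 11.0.1.1, with probe positions in mm9. The authors' deposited value table holds log2 values with a median of 0 in each column, and how it was made is not given in the sources used here; it served only to check sample names and as an alternative. From the scanner files, R 4.3.3 and limma 3.58.1 (with statmod 1.5.0) were used for normexp background correction (offset 50), loess within and Aquantile between arrays. Spots with an outlier flag, 2.16% to 4.28% per channel, were dropped, and 4.25% of values in the fit are missing, and spots of one probe were averaged. The 24567 probes detected (flagged well above background) in 4 or more samples entered 1 limma model with group and dye, and with the array as random block (correlation 0.293). Adjusted p-values are Benjamini-Hochberg over all probes of a comparison, with a threshold of 0.05. Precision is limited by the number of arrays. The code was tested on simulated data.

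All probes of the 9 genes are named, and from each pathway list every gene past the threshold or else the 2 with the smallest p. The genes and lists were chosen with earlier results of these data known. All 9 symbols are in the RefSeq table of gene names. Replicate numbers were not taken to pair the samples. Same-numbered samples of different groups correlated at -0.352 to 0.501 (median 0.04) in their deviations from group means. Differently numbered ones correlated at -0.508 to 0.44 (median 0.02). These ranges cannot exclude a link between samples of the same number, which also share a dye. Alternatives covered background, scaling, filter, probes per gene, outliers, model terms, samples in the fit, the naming of the arrays and leaving out each sample.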

Additional observations from a re-analysis of the deposited data

Results flagged for a closer look

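The 4 columns of the authors' deposited value table that carry peripubertal names match no scanner file, and no comparison uses them. In both dyes they hold higher values of 4 of the 12 probes than every other column with a value, and lower values of 2. Over the 25692 probes with a value in every column, 21.6% were higher and 28.8% lower in the same way. That set leaves out Rxrg probe 2, Cyp24a1 and Cyp2r1 probe 2, which lack a value in some columns. Cyp2r1 probe 2 has no value in the unmatched Cy5 columns and could not be judged in that dye. Rxrg probe 2, which the scanner files place at background, had 4.12 to 4.82 in the unmatched Cy3 columns, where the other Cy3 columns had -1.34 to -1.18, and 2.93 to 3.05 in the unmatched Cy5 columns, where the others had -3.78 to -3.29 (log2 values, with each column's median at 0). Rxrg probe 1 had 4.81 to 5.31 in the unmatched Cy3 columns, up to a value of 5.305, against 4.29 to 4.64 in the others, and 4.03 to 4.32 against 3.23 to 3.44 in Cy5. Cyp27a1 had 0.22 to 0.56 against -1.20 to -0.58 in Cy3, and -1.43 to -0.85 against -3.15 to -2.32 in Cy5. Cyp27b1 had -0.25 to -0.10 against -1.15 to -0.81 in Cy3, and -1.85 to -1.35 against -3.06 to -2.72 in Cy5. Lower were Rxrb, at 4.76 to 4.86 against 5.58 to 5.92 in Cy3 and 3.71 to 3.80 against 4.195 to 4.51 in Cy5, and Rxra probe 1, at -0.96 to -0.91 against -0.44 to -0.34 in Cy3 and -2.63 to -2.43 against -2.37 to -1.96 in Cy5. What RNA these columns hold was not tested. Among the scanner values, no sample stood apart from the 3 others of its group in any of 34 probe and group combinations tested with Dixon's ratio.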

How the results depend on the processing

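Of 697 recomputed differences of the 9 probes over all 3 comparisons, 650 moved by less than 1 within-group SD and stayed short of the threshold, 42 moved by more, and 5 passed it; 47 changed sign, none of them past the threshold. Of the sign changes, 15 came from exchanging the control and early-life arrays, 7 from the deposited value table and 11 from leaving out the scaling between arrays, which moved the median of all probes to 0.12 for early life minus control, beside -0.02; no background subtraction, processed signals and quantile scaling left it at -0.02. Cyp27a1 and Rxrg probe 1 kept their sign in every alternative for peripubertal minus early life and peripubertal minus control. Cyp27a1 passed for peripubertal minus early life without the array block (adjusted p = 0.0253), without the dye term (0.0464) and without E2, and Rxrg probe 1 without the array block (0.0449), so that 2, 1 and 1 probes passed there. With the replicate block 1 passed, Cyp27a1 (limma adjusted p = 0.0370). The replicate numbers mark no shared animal, and 3 of 12 samples correlated best with their own number. Leaving out each sample gave 0 to 0 passing probes of the 9 for early life minus control, 0 to 0 for peripubertal minus control and 0 to 1 for peripubertal minus early life.

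Over all probes, the number called was far less stable; the causes were not tested. For early life minus control it was 9, and 16 with the software's processed signals (3 higher, 13 lower), 0 with quantile scaling, without scaling, without a filter, with probes detected in all 12 samples, with the replicate block or with only 2 groups in the fit, 4 with 1 probe per gene, 3 with outliers kept, 109 without the array block and 20 without the dye term. For peripubertal minus control it was 48, and 0 without scaling or with only 2 groups, 14 with probes detected in all samples, 29 with outliers kept, 242 with no array block, 102 with no dye term, 16 with the replicate block and 510 with control and early-life arrays exchanged. For peripubertal minus early life it was 510, and 1 without scaling, 2618 without the array block, 870 without the dye term, 10 with only 2 groups and 48 with the arrays exchanged. Leaving out each sample gave 0 to 42, 1 to 39 and 2 to 1817 calls in these comparisons. In the last, the lowest came without E1 and the highest without E2, and every sample but C4 moved it by over 1.5 times. Lrp5 and Ppara for peripubertal minus early life had adjusted p of 0.0131 to 0.791 over 26 alternatives. Probes near background, Cyp27b1 and Cyp27a1 among them, are limited by their signal over background.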
